A study of Danio rerio with 4 samples.

Results

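Pronephric tubule cells, the epithelium of the embryonic kidney, were described in single-cell RNA-seq data from dissociated zebrafish trunks at 3 days post-fertilisation (dpf), from which the heads had been removed. They were chosen by their own expression: a retained barcode (more than 200 but fewer than 4000 genes, with mitochondrial genes giving less than 5% of its unique molecular identifiers, UMIs) counted as a pronephric cell when it held a UMI of at least 3 of the 8 genes aqp8b, pvalb9, atp1a1a.4, cdh17, slc26a1, cdaa, pdzk1ip1 and slc20a1a, of which cdh17, slc26a1 or slc20a1a had to be 1. The rule took 153 of 19611 retained cells (0.780%). There were 2 libraries of embryos labelled flt1ka604, called flt1 mutant here, and 2 libraries of WT embryos. flt1 encodes a receptor that binds Vegf, and the study's methods describe the allele as a short deletion in an early exon that ends the reading frame of both the membrane-bound and the soluble form in all cells of the embryo, so no group is specific to the kidney. How many embryos went into a trunk library is not given in the sources used here, and p-values therefore measure only the spread between libraries. No flt1 UMI was found in pronephric cells of any library, and in the other retained cells its level was 1.25 and 1.75 CPM (UMIs of a gene per 1000000 UMIs of all nuclear genes, summed over the cells of a class in a library) in the flt1 mutant libraries and 0.969 and 1.73 in the WT libraries. The sequenced 3′ ends lie away from the mutated exon, so these values do not check the genotype.

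The zebrafish pronephros is a pair of simple nephrons. Filtrate passes from a glomerulus built of podocytes through a neck into a proximal convoluted and a proximal straight tubule, then a distal tubule and a duct. Proximal cells take back phosphate, sulphate, glucose, amino acids and filtered protein by means of carriers, the megalin and cubilin receptors and a sodium gradient kept by the Na+/K+ pump, whereas distal cells carry NaCl cotransporters and chloride channels. Among the genes of the rule, cdh17 encodes a cadherin found along the whole tubule, slc20a1a a phosphate carrier known from the convoluted segment, slc26a1 a sulphate and anion exchanger, atp1a1a.4 a catalytic subunit of the Na+/K+ pump, aqp8b an aquaporin and pvalb9 a calcium-binding parvalbumin. Cells that bear bundles of motile cilia and drive the fluid are scattered among the transporting cells.

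The 153 pronephric cells held 677880 UMIs. There were 42 and 33 cells in the flt1 mutant libraries and 34 and 44 in the WT libraries, with median totals of 1875 and 2136 UMIs in flt1 mutant and 1670.5 and 1600 in WT. The other retained cells had medians of 5107 and 775 UMIs in the flt1 mutant libraries and 8152 and 3784.5 in the WT libraries. No barcode of a pronephric cell occurred in more than 1 library. RNA of other cell types was present. Every pronephric cell held UMIs of at least 3 of 5 markers of periderm, muscle, erythroid cells or neurons, and 146 held all 5 muscle markers. The muscle markers actc1b and mylpfa had a UMI in all 153 pronephric cells, and in 99.98% and 99.5% of the other retained cells. Across the 4 libraries the summed level of the 5 periderm markers lay between 1999 and 80934 CPM in pronephric cells and between 48886 and 68625 in the other cells, and that of the 5 erythroid markers between 666 and 114275 in pronephric cells and between 51254 and 104604 in the other cells. Of the 153 cells, 3 took over 5% of their UMIs from periderm and 4 from erythroid markers, and these 7 cells (2 and 2 in flt1 mutant, 2 and 1 in WT) held 20.9% of all pronephric UMIs. No doublet caller was run. The share of these transcripts in the results below was not tested beyond leaving the 7 cells out.

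Each UMI marks 1 transcript end, so CPM does not grow with transcript length. The genes that chose the cells are given as a description, with no test. aqp8b reached 1947 and 1166 CPM in pronephric cells of the flt1 mutant libraries and 4847 and 1924 CPM in those of WT. atp1a1a.4 was the most even, at 992 and 1191 CPM in flt1 mutant and 1206 and 1146 CPM in WT. pvalb9 was the least even, at 2061 and 4726 CPM in flt1 mutant and 1598 and 10378 CPM in WT, and only 66 of the 153 cells held a UMI of it. A UMI of aqp8b was present in 81.7% of pronephric cells and in 1.62% of the other cells, and in 73.4% and 0.466% once each cell with enough UMIs was thinned to 1000 (109 pronephric and 12011 other cells). By the number of rule genes, 48 cells stood at the limit with 3, and 5 cells held all 8. Just inside the limit, the 48 cells had a median of 945.5 UMIs and 716 CPM of si:ch211-139a5.9, a gene the rule did not use. All 153 cells together had 1260 CPM of it. Other tubule genes outside the rule were weaker in the 48 cells. They held 34.3 CPM of upb1 against 255 CPM in all 153, 34.3 against 183 CPM of dpys and 64.3 against 368 CPM of slc4a4a. atp1b1a stood at 2173 against 3801 CPM, and the erythroid gene hbae3 at 47260 against 25856 CPM. Just outside the limit, 139 retained cells held 2 of the 8 genes, with cdh17, slc26a1 or slc20a1a among them. They had a median of 14150 UMIs and 43.0 CPM of si:ch211-139a5.9, against 4.26 CPM over all other retained cells.

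**Figure D1:**
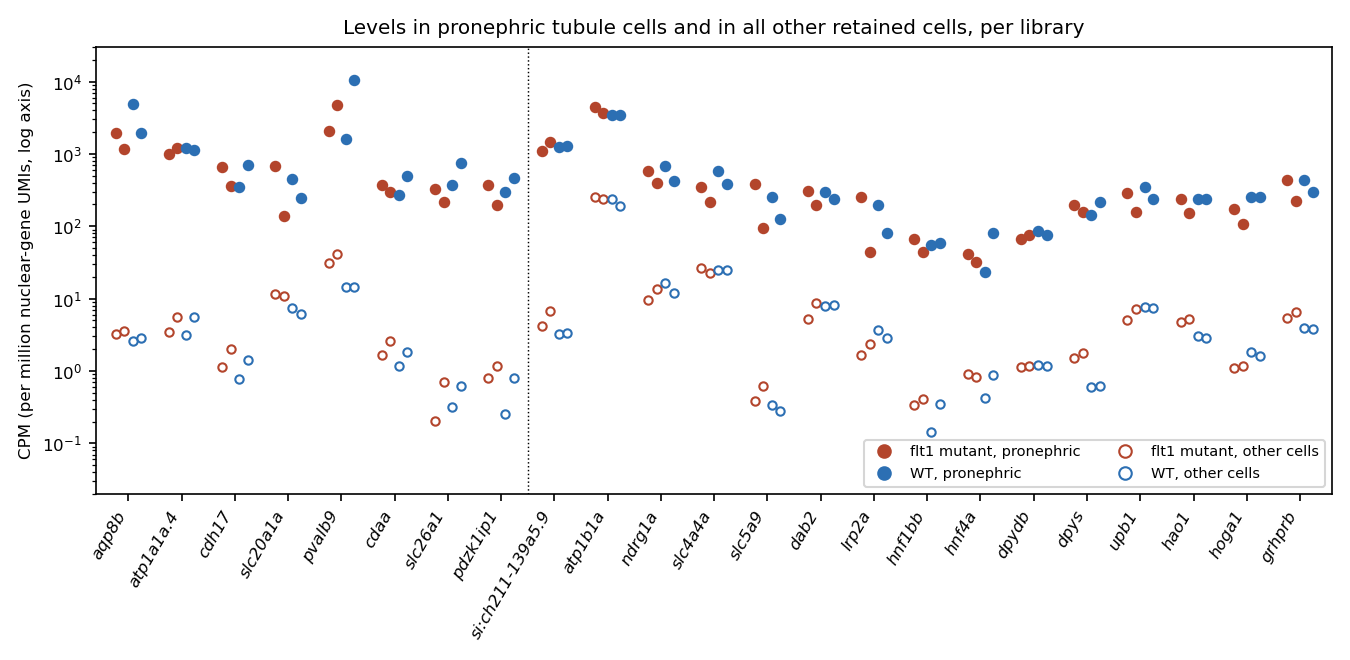
Levels of the 8 genes of the rule (left of the dotted line) and of 15 further genes, in CPM on a log axis, with 1 point per library. Filled points are pronephric cells and open points all other retained cells, red for flt1 mutant and blue for WT. The filled points lie above the open points of the same gene in every library, for atp1b1a at 3446 to 4452 CPM in pronephric cells against a mean of 231 CPM in the other cells.

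Beyond the rule, the summed RNA of the cells was described, in which a gene of few cells can stand high. Genes were counted whose CPM was at least 4 times higher in pronephric than in the other cells of the same library. This had to hold in each of the 4 libraries. Of 5638 genes with at least 10 UMIs in pronephric cells, 286 met this (5.07%), which included the 8 genes of the rule. Because the cells were chosen by their expression, this is no test. The limit of 10 UMIs was set on pronephric cells alone, which favours genes that are high there, in the lists below as well. The remaining 278 are described below by the lists they belong to.

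Among transcription factors, hnf1ba and hnf1bb, homeobox genes required for the identity of nephron segments, hnf4a, a nuclear receptor of absorptive epithelia, and emx1, a homeobox gene known from the zebrafish distal tubule, were at least 4 times higher in every library. hnf1bb stood at 67.1 and 44.6 CPM in pronephric cells of flt1 mutant and 54.8 and 58.6 CPM in those of WT, with 0.31 ± 0.12 CPM in the other cells (SD, n = 4). Of 26 nephron transcription factors listed, 9 had 10 UMIs or more and these 4 met the 4-fold limit. pax2a, which acts early in the kidney lineage, did not, with 424 and 217 CPM in flt1 mutant and 7.83 and 197 CPM in WT: the first WT library held 1 UMI of it.

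Of the fixed lists, that of proximal carriers held the most genes that met the limit. Of 48 proximal solute carriers in the files, 22 had at least 10 UMIs and 13 were at least 4 times higher in every library, with a median log2 fold of 5.67 over the 22 against 0.60 over all 5638 genes; this list includes slc20a1a of the rule. slc5a9, a sodium-coupled sugar carrier, had 387 and 95.5 CPM in flt1 mutant and 251 and 128 CPM in WT, with 0.41 ± 0.15 CPM in the other cells (SD, n = 4). The phosphate carrier slc34a1a had 51.6 and 51.0 CPM in flt1 mutant and 305 and 64.0 CPM in WT. Thus slc34a1a was highest in a single WT library while its other 3 libraries lay close together. slc6a19a.1, an amino acid carrier of the brush border, averaged 85.0 ± 69.0 CPM and slc22a13b, of the organic anion family, 67.6 ± 24.6 CPM (SD, n = 4). The sodium bicarbonate cotransporter slc4a4a, which moves base across the basolateral membrane, averaged 378 ± 147 CPM, and the anion exchanger slc4a2a 183 ± 95.5 CPM. The pump subunit atp1b1a, which the rule did not use, had 4452 and 3682 CPM in flt1 mutant and 3446 and 3470 CPM in WT, at least 14.4 times its level in other cells of the same library. The fxyd1 gene, for a small regulator of the pump, lay at 279 and 95.5 CPM in flt1 mutant and at 7.83 and 187 CPM in WT. Of the 105 fxyd1 UMIs, 99 lay in the multiciliated-gene cells described below. How well the counting told the similar genes of the pump alpha subunit apart was not tested.

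Genes of protein uptake were found as well. Of 27 genes of endocytosis and the brush border in the files, 10 had no UMI in pronephric cells and 10 had at least 10 UMIs. All 10 of the latter were at least 4 times higher in each library, against 5.07% of all 5638 genes. Since the limit of 10 UMIs was set on pronephric cells, themselves chosen by tubule genes, these shares are no test. The 10 genes included lrp2a (megalin), cubn (cubilin), amn, the partner that anchors cubilin, and dab2, an adaptor for receptors of this kind. lrp2a had 253 and 44.6 CPM in flt1 mutant and 196 and 80.0 CPM in WT, and a UMI of it was found in 27 of the 153 cells. dab2 was more even, with 310 and 197 CPM in flt1 mutant and 298 and 235 CPM in WT. The scaffold pdzk1, which tethers carriers under the apical membrane, averaged 188 ± 61.4 CPM in pronephric cells and 0.99 ± 0.26 CPM in the other cells (SD, n = 4).

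Enzymes of 2 metabolic routes were among the genes that met the limit. The successive enzymes of pyrimidine breakdown were all high: dpydb averaged 76.1 ± 7.82 CPM, dpys 179 ± 35.1 CPM and upb1 259 ± 82.0 CPM (SD, n = 4). For glyoxylate handling, hao1 (glycolate oxidase) averaged 216 ± 42.3 CPM, hoga1 (4-hydroxy-2-oxoglutarate aldolase) 196 ± 70.5 CPM and grhprb (glyoxylate reductase) 348 ± 105 CPM. Of 42 enzymes of proximal metabolism in the files, 24 had at least 10 UMIs and 10 of them met the limit. These 2 routes were picked out after the values were seen.

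Many of the 30 genes with the highest smallest fold have no descriptive name. si:ch211-139a5.9 was the most even of them, with 1105 and 1452 CPM in flt1 mutant and 1237 and 1274 CPM in WT, in 115 of the 153 cells. si:rp71-17i16.6 had 2949 and 452 CPM in flt1 mutant and 219 and 1263 CPM in WT, and it stood at 4230 CPM in the multiciliated-gene cells described below against 176 CPM in the others. Also among the 30 were pnp6, a purine nucleoside phosphorylase (216 ± 47.4 CPM), ca9, a carbonic anhydrase that many cell types make when oxygen is low (188 ± 116 CPM), and ggt1b, a gamma-glutamyltransferase of the brush border (67.5 ± 65.9 CPM, SD, n = 4). Of the 49 ggt1b UMIs, 37 lay in the multiciliated-gene cells. ndrg1a, which like ca9 was listed among genes of the low oxygen response, reached 578 and 395 CPM in flt1 mutant and 673 and 416 CPM in WT. Of the 9 genes of that list with at least 10 UMIs, only ca9 and ndrg1a met the 4-fold limit, and the median log2 fold of the 9 was 0.15.

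Several single markers of neighbouring cell types were found in few cells or none, but not all of them. slc12a1, the cotransporter of the early distal tubule, had a UMI in 0 of 153 pronephric cells. That allows a share of cells with a UMI of up to 1.96% but at this depth sets no limit on expression. It had a UMI in 0 of the 19458 other retained cells as well, so its lack does not set pronephric cells apart. slc12a3, the cotransporter of the late distal tubule, had a UMI in 2 pronephric cells. The homeobox gene emx1, named above as known from the distal tubule, went the other way, with a UMI in 28 of the 153 cells. The podocyte gene nphs1 was found in 0 of 153 cells as well, with the same limit. No UMI of 6 skin ionocyte markers was present, and the 5 enterocyte markers summed to between 0 and 51.6 CPM, against 81.1 to 174 CPM in the other cells. Summed as lists, the distal genes were higher in pronephric than in other cells in all 4 libraries and the podocyte genes in 3 of 4. The 16 distal transport genes, 9 of them without a UMI in pronephric cells, summed to 62.0 and 115 CPM in the flt1 mutant and 47.0 and 69.3 CPM in the WT pronephric cells, against 17.1 to 26.7 CPM in the other cells, and clcnk, a chloride channel gene, had a UMI in 5 pronephric cells. The 8 podocyte genes, 3 of them without a UMI, summed to 191 and 70.07 CPM in the flt1 mutant and 141 and 80.0 CPM in the WT pronephric cells, against 64.5 to 85.0 CPM in the other cells. The rule itself named carriers of the proximal tubule, so the balance of proximal and distal genes is partly fixed by the choice of cells.

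The pronephric cells were not uniform. To describe this, they were divided by 3 sets of genes, at limits set after the values were seen: cells with UMIs of at least 3 of 20 multiciliated genes, cells with a UMI of slc13a1 (a sodium sulphate cotransporter known from the proximal straight tubule), cells with a UMI of slc20a1a, and cells with none of these. The sets held 15, 11, 82 and 45 cells. The division of the cells fixes much of what follows, so no value of these sets was tested.

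The 15 multiciliated-gene cells were deep, with a median of 13348 UMIs, and gave 29.4% of all pronephric UMIs. There were 6 and 5 of them in the flt1 mutant libraries and 0 and 4 in the WT libraries. Of the 153 cells, 131 held at most 1 of the 20 genes, 7 held 2, 2 held 3 and 11 held 8 or more, so 9 cells stood next to the limit. capsla, which encodes a calcium-binding protein of ciliated cells, reached 5560 CPM in the 15 cells and 23.3 CPM in the other 138, and tekt3, of the ciliary microtubules, 590 and 0 CPM. Outside the list, edn2, for a vasoactive peptide, had 145 UMIs in 8 of the 15 cells and 0 in the remaining 138 pronephric cells. jag2b, a Notch ligand, stood at 216 CPM in the 15 cells and 6.37 CPM in the others, pax2a at 698 and 38.2 CPM, and the tight-junction gene cldnh at 1093 and 38.2 CPM. cdh17 was near equal, at 565 CPM in the 15 cells and 535 CPM in the 138. RNA of other cell types was also present in the 15 cells. The periderm gene krt4 stood at 21802 CPM there and 13835 CPM in the 138, and hbae3 at 31232 and 23633 CPM. The part of such RNA in these differences was not tested. capsla UMIs were found in 14.4% of pronephric cells and in 0.884% of the other retained cells, and in 12 of 109 and 26 of 12011 after thinning to 1000 UMIs. The first WT library held none of these cells, and it was also the only library in which pax2a and fxyd1 had 1 UMI each.

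The slc13a1 cells were few, with 4 and 3 in flt1 mutant and 1 and 3 in WT, and 4 further cells with slc13a1 belonged to the multiciliated-gene set. Their pvalb9 level was 19822 CPM, against 297 CPM in the slc20a1a cells. slc3a1, which with its partner carries cystine and basic amino acids, was at 342 CPM and 10.9 CPM in these sets, the glucose carrier slc5a1 at 276 CPM and 3.62 CPM, and ftcd, an enzyme that links histidine breakdown to folate, at 670 CPM and 156 CPM. Only 2 of the 153 cells held UMIs of both slc13a1 and slc20a1a.

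The 82 slc20a1a cells formed the largest set, with 24 and 13 in flt1 mutant and 21 and 24 in WT. Summed levels of carriers and receptors lay in both directions between these cells and the slc13a1 cells. On one side, slc34a1a stood at 214 CPM in these cells and had no UMI in the slc13a1 cells, slc5a12 at 119 CPM with no UMI, slc6a19a.1 at 166 CPM with no UMI, lrp2a at 268 CPM against 158 CPM and ca9 at 322 CPM against 13.1 CPM. On the other side, the receptor gene cubn stood at 50.7 CPM in the slc20a1a cells and 78.9 CPM in the slc13a1 cells, the phosphate carrier slc20a1b at 72.4 and 131 CPM, and the amino acid carriers slc7a7 at 57.9 and 105 CPM and slc6a18 at 0 and 145 CPM. slc3a1, given above, lay on this side as well. In the slc13a1 cells several of these levels rested on 1 to 3 cells. lrp2a (12 UMIs), cubn (6 UMIs) and ca9 (1 UMI) were each found in 1 cell. slc7a7 (8 UMIs) was found in 2 cells, and slc20a1b (10 UMIs) and slc6a18 (11 UMIs) in 3 cells each. The deepest of the 11 slc13a1 cells held 29052 of the 77666 UMIs of that set. The slc20a1a cells held more RNA of other cell types than the slc13a1 cells. The periderm gene krt4 stood at 22090 CPM and the erythroid gene hbae3 at 40023 CPM there, against 447 and 223 CPM in the slc13a1 cells. Such UMIs count in the total behind each CPM, and their part in the differences between the sets was not tested. The 45 cells with none of the 3 had a median of 1063 UMIs, 2670 CPM of aqp8b and 3580 CPM of pvalb9, both between those of the slc13a1 and slc20a1a sets. At that depth the lack of a carrier UMI does not show that the carrier was not expressed.

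**Figure D2:**
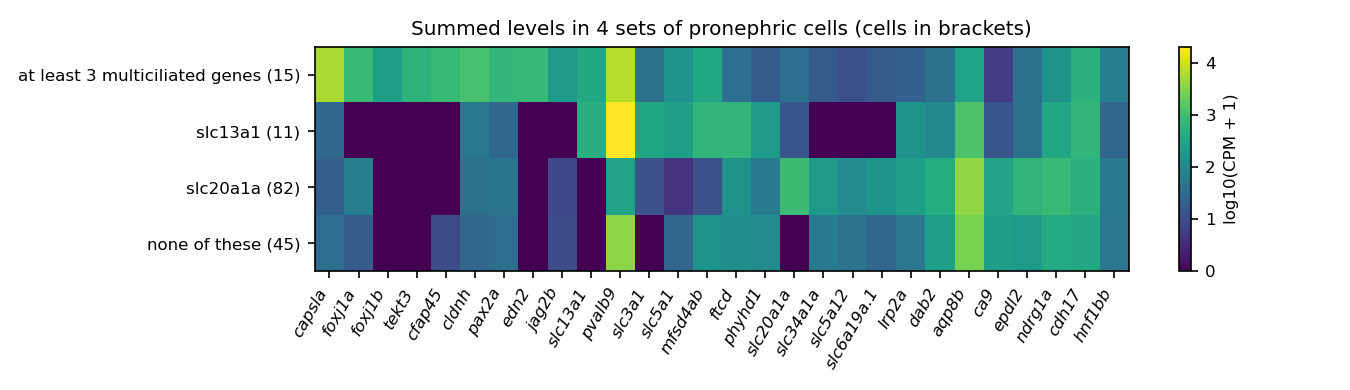
Summed levels of 28 genes in 4 sets of pronephric cells, as log10(CPM + 1) by colour, with the number of cells in brackets. Multiciliated genes are brightest in the first row, where capsla reaches 5560 CPM, pvalb9 is brightest in the slc13a1 row at 19822 CPM, and cdh17 and hnf1bb appear in all 4 rows.

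The mitochondrial limit bore heavily on the choice of cells. Without it 308 barcodes met the gene rule, so 155 of them (50.3%) lay at 5% or more mitochondrial UMIs: 51.7% and 52.9% in the flt1 mutant libraries and 46.0% and 50.0% in the WT libraries. Over all barcodes within the limits on genes it removed 42.6% and 36.5% in flt1 mutant and 31.9% and 34.9% in WT. The 155 barcodes were deeper than the cells kept, with a median of 12159 UMIs against 1729, and their median mitochondrial share was 13.1%. Tubule cells are rich in mitochondria, and whether the limit removed damaged or intact cells was not tested.

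Several transport genes were higher in the 155 barcodes than in the pronephric cells of the same library, in all 4 libraries. lrp2a had 1026 and 1386 CPM in the flt1 mutant and 2108 and 672 CPM in the WT barcodes over the limit, against the 253, 44.6, 196 and 80.0 CPM given above. slc4a4a averaged 1788 ± 854 CPM over the limit and 378 ± 147 CPM in the pronephric cells, and atp1b1a 10732 ± 1790 and 3762 ± 472 CPM (SD, n = 4). Of the 286 genes 4 times higher in pronephric cells, 109 were higher still in the barcodes over the limit in all 4 libraries and 21 were lower in all 4. The same share over all genes was not computed, so these counts are not read as a result about the 286. Muscle markers summed to 3742 to 9883 CPM over the limit and 10188 to 20543 CPM in pronephric cells. The part of such RNA in the counts was not tested. Barcodes over the limit also held distal genes. slc12a3 had 524 and 179 CPM in flt1 mutant and 600 and 471 CPM in WT over the limit, against 20.7 and 44.6 CPM in flt1 mutant and 0 and 0 CPM in WT under it, where 3 UMIs would be 15.5 to 23.5 CPM. The chloride channel gene clcnk, its subunit gene bsnd and the pump gene atp1a1a.3 followed this pattern, with 139 ± 65.9, 168 ± 69.4 and 834 ± 449 CPM over the limit and 11.4, 4.78 and 0 CPM under it (SD, n = 4). Enterocyte markers were also higher over the limit, at 190 to 798 CPM summed over 5 genes against 0 to 51.6 CPM, with the intestinal transcription factor cdx1b in 16 of the 155 barcodes and in 0 of the 153 pronephric cells; how many of the 155 are gut cells was not tested. Periderm and erythroid markers were low there, at 1077 to 1455 and 302 to 453 CPM.

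**Figure D3:**
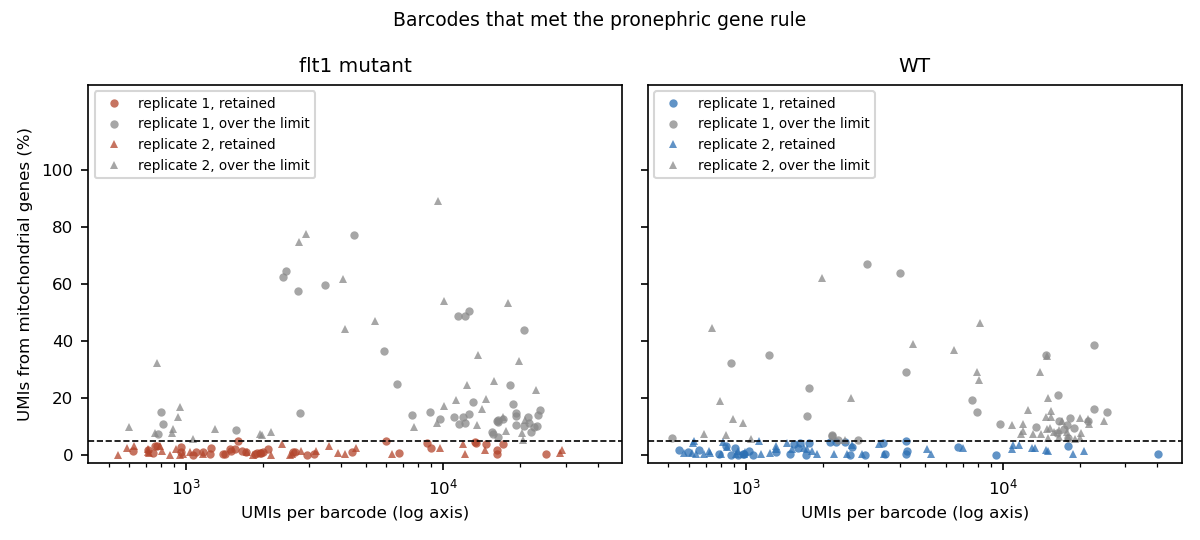
Share of UMIs from mitochondrial genes against the UMIs of each of the 308 barcodes that met the gene rule, for flt1 mutant (left) and WT (right), with replicate 1 as circles and replicate 2 as triangles. Coloured points under the dashed line at 5% are the 153 cells retained, and grey points the 155 over it, whose median is 12159 UMIs against 1729 in the retained cells.

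To ask whether the number of pronephric cells differed with genotype, their share of retained cells was compared over libraries. The shares were 0.974% and 0.593% in flt1 mutant (95% Clopper-Pearson intervals 0.703 to 1.31% and 0.408 to 0.831%, for counting error only) and 1.12% and 0.658% in WT (0.775 to 1.56% and 0.478 to 0.882%). The libraries of the genotypes overlapped. The means were 0.783 ± 0.270% in flt1 mutant and 0.888 ± 0.325% in WT (SD, n = 2 each), a difference of -0.104 percentage points (p = 0.667, two-sided exact permutation test, which cannot go below 0.333 with 2 against 2 libraries). The sign of the difference turned when cells needed over 500 genes (0.145 percentage points), when cells were thinned to 2000 UMIs before the rule (0.0248), and without flt1 mutant replicate 2 (0.0862) or WT replicate 1 (0.125).

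**Figure D4:**
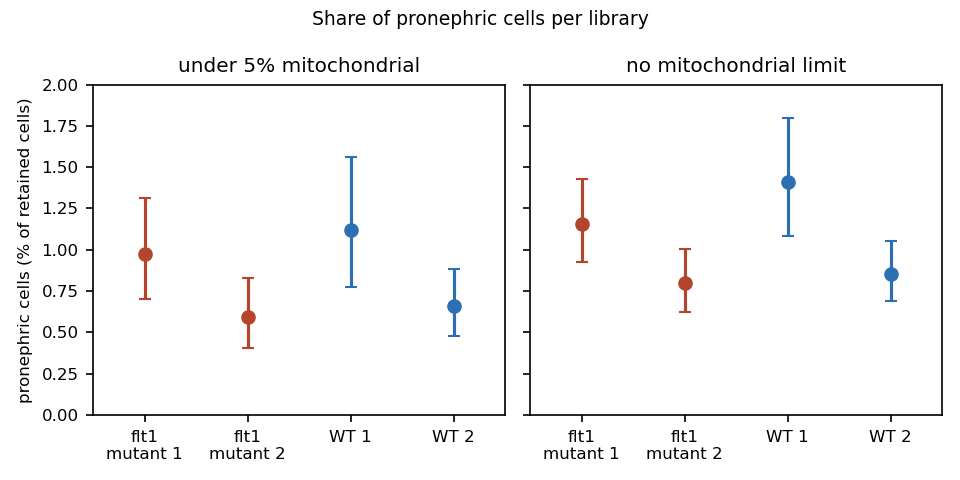
Pronephric cells as a percentage of retained cells in each library, with flt1 mutant in red and WT in blue, under the mitochondrial limit of 5% (left) and with no such limit (right). Points are libraries and bars 95% Clopper-Pearson intervals; the libraries of the genotypes overlap in both panels.

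The effect of the flt1 mutation on expression within pronephric cells was tested on their UMI sums per library. Of 2050 genes with enough counts, 0 passed an adjusted p of 0.05 (0% of those tested; edgeR quasi-likelihood F test with Benjamini-Hochberg adjustment), and 49 had an unadjusted p under 0.05, of which 20 were higher and 29 lower in flt1 mutant. DESeq2 called 0 genes as well. The libraries of one genotype lay all above or all below those of the other for 602 of the 2050 genes (29.4%). With 2 sums of 33 to 44 cells per genotype, moderate differences were not detectable at this depth: the median standard error of the log2 fold change was 0.51. The 20 genes given next are those of smallest p with separated libraries, 10 in each direction, and every one of them had an adjusted p of 0.996 by edgeR.

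Of the 10 higher genes, si:ch211-121a2.2 had the smallest p, with 227 and 248 CPM (44 and 39 UMIs) in flt1 mutant and 0 and 10.7 CPM (0 and 2 UMIs) in WT. Its log2 fold change was 5.11 ± 0.76 (SE). The same gene stood at 148 and 156 CPM in flt1 mutant and 2.57 and 3.02 CPM in WT in all other retained cells, a log2 fold change of 5.79 ± 0.22 (adjusted p = 0.00624, edgeR), and the difference between both effects did not pass (unadjusted p = 0.709). Without the mitochondrial limit it was the 1 gene of 5432 called in cells that met the rule (log2 fold change 5.40 ± 0.32, adjusted p = 0.0422, edgeR). The next genes, ptgr1, a reductase of prostaglandins and reactive aldehydes, with 170 and 115 CPM in flt1 mutant and 7.83 and 10.7 CPM in WT, and dnpep, an aminopeptidase, with 207 and 115 CPM in flt1 mutant and 31.3 and 16.0 CPM in WT, rested on 26 and 29 cells with a UMI. nupr1b, which encodes a small nuclear protein induced by stress, had 196 and 261 CPM in flt1 mutant and 31.3 and 80.0 CPM in WT, and its log2 fold change of 1.98 ± 0.51 was 0.51 ± 0.21 without the mitochondrial limit. The other 6 were id2a, ypel5, the simple keratin gene krt18a.1, si:dkey-248g15.3, zgc:158343 and the transcription factor gene ets2, with log2 fold changes of 1.03 to 2.73. All 10 had positive log2 fold changes in the other retained cells too, such as 0.73 for ptgr1, 0.88 for dnpep and 1.29 for ypel5. Only that of si:ch211-121a2.2 passed there. si:dkey-248g15.3 averaged 91.7 CPM in pronephric cells and 832 CPM in the other cells.

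Of the 10 lower genes, gamt, which encodes the enzyme of the last step of creatine synthesis, was the most broadly found, in 90 of the 153 cells. It had 222 and 204 CPM in flt1 mutant and 603 and 586 CPM in WT, and its log2 fold change was -1.50 ± 0.29 (SE); it was -1.63 ± 0.30 without the mitochondrial limit and -0.997 ± 0.308 without the multiciliated-gene cells. In the other retained cells the gamt values were 180 and 177 CPM in flt1 mutant and 168 and 364 CPM in WT, which overlapped. ftcd, whose product degrades histidine, had 93.0 and 82.8 CPM in flt1 mutant and 180 and 336 CPM in WT. adh8b, of the alcohol dehydrogenase family, had 93.0 and 121 CPM in flt1 mutant and 227 and 634 CPM in WT. zgc:92242 had 15.5 and 25.5 CPM in flt1 mutant and 243 and 155 CPM in WT, but its UMIs came from 9 cells. fabp7a, a fatty acid binding protein gene, had 10.3 and 12.7 CPM in flt1 mutant and 133 and 90.6 CPM in WT, or 2 and 2 UMIs against 17 and 17. It was higher in the other retained cells of each library, at 237 and 329 CPM in flt1 mutant and 481 and 458 CPM in WT. The remaining 5, tubb5, pin4, kpna2, mdkb and cfl1l, had log2 fold changes of -2.71 to -1.26, and tubb5, kpna2 and mdkb were found in 21, 13 and 11 cells. Like fabp7a, the genes zgc:92242, mdkb and cfl1l averaged lower in pronephric than in the other retained cells. The rest of the 10 averaged higher in pronephric cells. How much of these UMIs was RNA of other cell types was not tested.

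**Figure D5:**
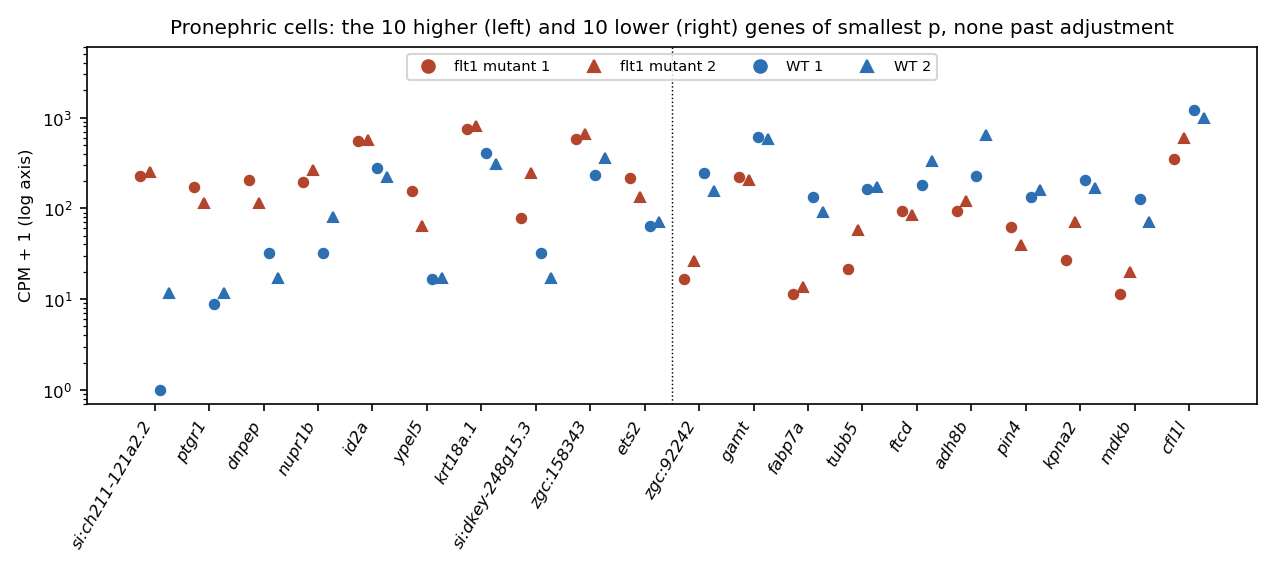
Levels in pronephric cells of the 10 higher (left) and 10 lower genes (right) of smallest p, as CPM + 1 on a log axis, with flt1 mutant in red left of WT in blue, replicate 1 as circles and replicate 2 as triangles. By construction the genotypes do not overlap, and all 20 have an adjusted p of 0.996.

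By function, no gene of any list passed. Of 14 proximal metabolism genes tested 2 had an unadjusted p under 0.05 (edgeR), both lower in flt1 mutant, among them gamt. Over all 2050 genes 49 had such a p, 29 of them lower. The median log2 fold change of the 14 was -0.35 with a median standard error of 0.48, against a median of -0.01 over all 2050 genes. The medians were -0.14 for 13 proximal carriers, 0.01 for 6 endocytosis genes and 0.02 for 6 genes of the sodium pump. slc26a1, the only sulphate exchanger with enough counts, had 325 and 217 CPM in flt1 mutant and 376 and 752 CPM in WT. The 8 genes of the rule had a median of -0.31, which the choice of cells touches. The 6 genes of tubule injury and repair had a median of 0.74. Of these, 4 (krt18a.1, krt8, sox4a and ccn2a) had both flt1 mutant libraries above both WT libraries, as did 289 of all 2050 genes. Separation one way or the other was seen for 29.4% of all genes. krt18a.1 stood at 749 and 803 CPM in flt1 mutant and 407 and 304 CPM in WT, and its log2 fold change of 1.098 ± 0.321 was 0.41 ± 0.32 without the multiciliated-gene cells, which held 939 CPM of it against 418 CPM in the rest. The other 3 were higher in the multiciliated-gene cells too, ccn2a at 693 CPM against 34.0 CPM in the rest, krt8 at 1201 against 333 CPM and sox4a at 77.0 against 42.5 CPM, and those cells numbered 6 and 5 in flt1 mutant and 0 and 4 in WT; their part in the median of the list was not tested. The 16 multiciliated genes had a median of 0.76 with a median standard error of 1.37, beside the same uneven number of multiciliated-gene cells; fewer such cells and less RNA per cell cannot be told apart in these sums. Of the vessel signals 3 had enough counts: vegfaa, the ligand that Flt1 binds, had 155 and 31.8 CPM in flt1 mutant and 15.7 and 90.6 CPM in WT, which overlapped. Of the 54 vegfaa UMIs, 33 lay in 6 of the multiciliated-gene cells.

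A last test asked whether the genotype effect in pronephric cells differed from that in all other retained cells (the difference of both effects, with the library as a block). Of 16386 genes, 9 passed (0.0549%), 1 with a higher and 8 with a lower effect in pronephric cells, by the edgeR quasi-likelihood F test with Benjamini-Hochberg adjustment, and DESeq2 called 0. The split by direction was not stable: it was 11 higher and 16 lower with library totals as the scaling, and 6 higher and 2 lower without flt1 mutant replicate 1. Most of these rested on a few cells of 1 library. and1, and2 and and3, which encode proteins of the fin-fold actinotrichia, had 2 to 3 UMIs in the first flt1 mutant library, 0 to 1 in the second, 2 to 3 in the first WT library and 117 to 320 in the second, and frem2a had its 33 UMIs in a single cell. For zgc:92242 both WT libraries held UMIs (31 and 29), against 3 and 4 in the flt1 mutant libraries, with a difference of effects of -3.44 ± 0.77 on the log2 scale (adjusted p = 0.0217, edgeR), in 9 cells. The other 4 were angptl7, zgc:92380, apoeb and tagln, found in 2 to 8 cells. The 5 genes of smallest p with a higher effect in pronephric cells and separated libraries, si:ch211-161c3.6, C19H5orf49, si:ch211-250g4.3, slc37a1 and col6a1, did not pass (adjusted p of 0.127 to 0.194, edgeR) and were found in 4 to 10 cells each. The called genes outside the rule for named genes (and3, apoeb, tagln and frem2a) were named after their values were seen.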

How the data were processed

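Trunk cells of 4 libraries (2 flt1 mutant, 2 WT) were profiled on the 10x Chromium platform. Version 2 of the 3′ kit is named in the labels but version 3 in the paper, which was not settled. Per the file headers and the submitters' processing notes, Cell Ranger 6.1.1 and build GRCz11 were used. The deposited files hold the authors' UMI counts per gene and barcode as whole numbers, without normalization, with barcode and gene lists (other text). The totals per library were 48823693 to 85429263 UMIs over 4942 to 10506 barcodes. Barcodes with over 200 and under 4000 genes and under 5% mitochondrial UMIs entered the analysis, as in the published methods. No doublet caller was run.

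The members and the gene lists were chosen with earlier results of these data known. UMIs were summed per library over members and over all other retained cells. Sums were tested with edgeR 4.0.16 (TMM, filterByExpr, quasi-likelihood F test) in R 4.3.3, and DESeq2 1.42.0 was an alternative. Folds against other cells took at least 3 UMIs as their denominator. Scripts were tested on simulated data. The named genes were the 10 higher and 10 lower of smallest p with separated libraries (5 and 5 for the difference of effects), the 30 genes with the largest smallest-of-4 fold, and genes of the lists. The alternatives were other limits on cells, genes and scaling, a replicate block and leaving out each library. The numbers of the replicates do not pair the libraries, since no label links them. Results of some listed genes are not reported here.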

Additional observations from a re-analysis of the deposited data

Results flagged for a closer look

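The genotype effect differed between pronephric and other retained cells for 9 genes by the test of the difference itself (edgeR quasi-likelihood F test, adjusted p of 0.00337 to 0.0418). On the log2 scale the differences of effects were -4.94 for and2, -13.12 for angptl7, -4.74 for and1, -12.85 for zgc:92380, -3.44 for zgc:92242, -4.01 for and3, -4.43 for apoeb, 12.49 for tagln and -12.68 for frem2a. Genes with no UMI in the pronephric cells of one genotype have fitted values that are no measure of size. Pronephric UMIs of 4 of the 9 genes came from 1 or 2 libraries, and no gene of the 9 was found in over 13 pronephric cells. For each of the 9 except zgc:92242 (46.3%), a single library held at least 89.3% of the pronephric UMIs. DESeq2 called 0 genes for the same difference of effects. All 45 pronephric UMIs of tagln, a smooth muscle gene, came from flt1 mutant replicate 2.

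A set of 155 barcodes met the pronephric gene rule but lay at 5% or more mitochondrial UMIs and entered no test of the retained cells. They held slc12a3 in 23 barcodes, clcnk in 33, bsnd in 36 and atp1a1a.3 in 14, against 2, 5, 2 and 0 of the 153 cells retained, and also cldn15la in 34 against 8. The enterocyte markers fabp2 and cdx1b were found in 35 and 16 of the 155 barcodes, against 11 and 0 of the 153 cells. How many of the 155 are gut cells was not tested.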

How the results depend on the processing

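The number of pronephric cells was 308 with no mitochondrial limit, against 153, and lay between 105 and 203 under the other limits. Leaving out each library gave 109 to 120 cells. Leaving out members with 3 markers of periderm, muscle, erythroid cells or neurons left no cells, since all 153 held them, and could give no value. The difference in share (-0.104 percentage points) became 0.145 with over 500 genes per cell and 0.0248 with thinning to 2000 UMIs, and ranged from -0.334 to 0.125 when 1 library was left out.

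Genes called between genotypes (0 of 2050) numbered 1 with no mitochondrial limit, 52 with no count filter, and 0 to 47 when 1 library was left out: 47 without WT replicate 1 and 42 without WT replicate 2, where the lone WT library was assumed to vary like the other group. With the replicate block 0 genes passed, and with the crossed replicate block, added after seeing the data because the replicate differences of the genotypes correlated at -0.553, also 0. None of the 20 named genes changed direction under any setting that tested it. They were chosen for separated libraries, so leaving out a library or changing the scaling could hardly turn their sign. Leaving out the 7 cells with over 5% periderm or erythroid UMIs, or the multiciliated-gene cells, gave 0 calls; both settings were chosen after seeing the data.

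Genes whose genotype effect differed from that in other cells (9) numbered 27 with library totals, 0 by DESeq2 and 1 to 86 when 1 library was left out (8 without flt1 mutant replicate 1, 1 without flt1 mutant replicate 2, 19 without WT replicate 1, 86 without WT replicate 2). Genes at least 4 times higher in pronephric cells (278 outside the rule) numbered 686 at 2-fold, 176 with at least 30 UMIs, and 247 to 537 when 1 library was left out, the highest without WT replicate 1; 255 of the 537 were among the 278. Depth limits all of this: the median pronephric cell had 1729 UMIs.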
